A study of Mus musculus with 96 samples.

Results

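The 10 genes described here encode the apolipoproteins ApoA-I, ApoA-II, ApoA-IV, ApoA-V, ApoB, ApoC-I, ApoC-II, ApoC-III and ApoE (Apoa1, Apoa2, Apoa4, Apoa5, Apob, Apoc1, Apoc2, Apoc3 and Apoe) and the large subunit of microsomal triglyceride transfer protein (Mttp). They were chosen by function and not by their values, out of 25095 gene symbols in the tables. Each gene was read from the transcript with its highest mean in a table. All 10 passed the filter on low values in every table.

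RNA was sequenced from hepatocytes and liver macrophages of male C57BL/6J mice that received a virus at 8 weeks of age and were then kept for 4 weeks on an obesogenic chow rich in fat and sucrose. Every mouse was injected with an adeno-associated virus whose cargo was driven by the hepatocyte promoter TBG, so the macrophages themselves were not the target of deletion. Control mice received the GFP virus, and the other groups received CRE: RevDKO (ReverbhDKO in the labels) is floxed for both Rev-erb genes, Nr1d1 and Nr1d2, RevScapTKO (Reverb/ScaphTKO) for these and Scap, and ScapKO (ScaphKO) for Scap alone. Each genotype had 3 libraries of each cell type at zeitgeber time 4 (ZT4), ZT10, ZT16 and ZT22, with lights off at ZT12, which gave 96 libraries in 32 groups. Which floxed alleles the Control mice carried, and whether libraries came from single or pooled animals, was not given in the sources used here. If libraries of a group shared an animal or a culture, the p-values would measure technical spread.

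Apolipoproteins are the protein coat of the particles that carry lipid in blood. Hepatocytes build very-low-density lipoprotein (VLDL) around a single ApoB molecule, onto which MTTP loads triglyceride in the endoplasmic reticulum. ApoA-I and ApoA-II are the main proteins of high-density lipoprotein (HDL), ApoE is the ligand through which liver receptors clear remnants, and the exchangeable ApoC and ApoA-V proteins raise or lower the activity of lipoprotein lipase. SREBP transcription factors, which need SCAP to become active, drive fatty acid and cholesterol synthesis, and REV-ERB proteins are clock repressors of transcription, so the genotypes remove regulators of the lipid that these particles export.

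Values are RPKTM, a read density per transcript length scaled to a common library total, after quantile normalization within a table, so levels can be compared between genes per length. In a quantile-normalized table every library holds the same set of values, and a gene of very high rank can take only a few of them. Apob, the structural protein of VLDL, took 4 distinct values over the 36 hepatocyte libraries of Control, RevDKO and RevScapTKO, with ranks between 3 and 8. A change of Apob could therefore hardly be measured in these cells. The ScapKO libraries were normalized in tables of their own and were not tested against the other genotypes. For the ScapKO hepatocytes the sample titles and the cell type field disagree. The titles were followed, and summed hepatocyte markers in these libraries were at least 435805 RPKTM against at most 148174 in the ScapKO macrophage libraries.

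The deleted genes were checked first. Nr1d1 was 90.7 ± 119 RPKTM in Control hepatocytes (SD, n = 12, as for every later mean unless stated), 138 ± 108 in RevDKO and 140 ± 62.9 in RevScapTKO, and Nr1d2 was 228 ± 141, 312 ± 116 and 353 ± 62.5, so the transcript level of neither gene fell with the label. The study itself reports both Rev-erb genes as markedly reduced in hepatocytes, from relative mRNA levels that were not used here. The reads cover the whole transcript, and the retained part cannot be told apart from the floxed part. Genotype names therefore denote the libraries as labelled. Scap did separate the groups: it ranged from 82.8 to 299 in the libraries labelled RevScapTKO, from 321 to 733 in RevDKO and from 395 to 698 in Control. In ScapKO hepatocytes, in a table normalized apart, it ranged from 205 through a median of 345 to 1006. Hepatocyte markers were high in the hepatocyte tables, and all 13 macrophage markers were detected in the macrophage tables. The macrophage libraries also held hepatocyte RNA: all 14 hepatocyte markers were over 5 RPKTM in every one of the 36 libraries, with sums from 34582 to 1634910. In these macrophage libraries median sums of hepatocyte markers were 100415 in Control, 84998.5 in RevDKO and 99827 in RevScapTKO. Median sums of macrophage markers were lower, at 20193, 10238.5 and 11027. Both sums cover different genes and are not shares of cells. In bulk RNA fewer cells of a type and less RNA per cell cannot be told apart. The 3 macrophage libraries highest in Alb were Control ZT16 replicate 1, Control ZT22 replicate 1 and RevScapTKO ZT22 replicate 3, and macrophage results are also given without them. Among ScapKO hepatocytes, ZT16 replicate 3 held 129.7 RPKTM of Xist against at most 14.96 in the other libraries, although the mice are labelled male.

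Of the 10 genes, 7 lie in a pair of clusters. In the mm9 build Apoa1, Apoc3, Apoa4 and Apoa5 span 43.3 kb of chromosome 9 (46036713 to 46080004), and Apoc2, Apoc1 and Apoe span 26.8 kb of chromosome 7 (20256928 to 20283747). Apoa2 is on chromosome 1 (173155185 to 173156510), Apob on chromosome 12 (7984483 to 8023645) and Mttp on chromosome 3 (137752819 to 137806382). Apoc2 overlaps the same-strand gene model Gm44805 along all 6363 bp of its transcript, and its values are uncertain for that reason.

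The 250 bases before the transcript start are shown for the genes on which the results turn: Apoa4 and Apoa2, which moved in opposite directions, and Apoc3, Apoa5 and Mttp, which changed with genotype or with time of day. The sequences are from the mm9 genome, 5′ to 3′ on the strand of the gene, at chr9:46048677-46048926 (plus strand) for Apoa4, chr1:173154935-173155184 (plus) for Apoa2, chr9:46043383-46043632 (minus) for Apoc3, chr9:46076466-46076715 (plus) for Apoa5 and chr3:137806383-137806632 (minus) for Mttp. Capitals mark matches, on either strand, to CACGTG (the E-box), AGGTCA (the nuclear receptor half-site, the sequence that REV-ERB and other nuclear receptors recognise in part) or TGACGT (a CRE-type site).
Apoa4: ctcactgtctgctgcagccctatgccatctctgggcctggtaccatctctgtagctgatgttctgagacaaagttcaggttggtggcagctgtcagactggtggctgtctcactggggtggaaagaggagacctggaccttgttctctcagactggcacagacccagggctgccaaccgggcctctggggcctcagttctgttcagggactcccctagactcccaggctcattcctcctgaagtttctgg
Apoa2: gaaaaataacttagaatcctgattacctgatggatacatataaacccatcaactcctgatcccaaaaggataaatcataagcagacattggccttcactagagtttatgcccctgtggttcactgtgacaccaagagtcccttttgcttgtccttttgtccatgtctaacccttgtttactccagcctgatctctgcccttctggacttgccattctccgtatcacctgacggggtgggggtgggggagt
Apoc3: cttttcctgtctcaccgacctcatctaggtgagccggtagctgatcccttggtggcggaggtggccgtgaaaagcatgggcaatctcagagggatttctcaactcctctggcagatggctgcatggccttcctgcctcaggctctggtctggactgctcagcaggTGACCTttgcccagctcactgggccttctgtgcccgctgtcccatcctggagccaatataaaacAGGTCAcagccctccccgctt
Apoa5: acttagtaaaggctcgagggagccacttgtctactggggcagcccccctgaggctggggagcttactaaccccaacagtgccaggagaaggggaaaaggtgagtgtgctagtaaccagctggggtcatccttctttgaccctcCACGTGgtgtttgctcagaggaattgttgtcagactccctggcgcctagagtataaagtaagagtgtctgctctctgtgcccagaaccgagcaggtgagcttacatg
Mttp: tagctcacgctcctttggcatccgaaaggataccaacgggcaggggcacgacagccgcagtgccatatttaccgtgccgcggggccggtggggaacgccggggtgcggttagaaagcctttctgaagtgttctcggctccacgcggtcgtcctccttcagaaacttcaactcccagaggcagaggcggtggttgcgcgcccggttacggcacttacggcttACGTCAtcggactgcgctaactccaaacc
CACGTG was found in Apoa5, at position -107 from the start, and in 6.51% of 25011 promoters of the same length. AGGTCA was found in Apoc3, at -85 on the reverse strand and at -21, and also in Apoc2 at -115, and in 12.6% of all promoters. TGACGT was found in Mttp, at -29 on the reverse strand, and in 7.34% of all promoters. The windows of Apoa4, Apoa2, Apoa1, Apob, Apoc1 and Apoe held none of these 3 strings, which says nothing about distant sites. Each window belongs to the transcript read in the hepatocytes, out of 5 for Apoa2, 4 for Apoc3, 2 for Apoa5 and 4 for Mttp. Windows of other transcripts were not searched. The matches describe these letters only.

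In Control hepatocytes the order of levels followed from the most abundant, Apob (128682 ± 11624 RPKTM), to Apoe (51566 ± 8343), Apoa1 (21789 ± 4759), Apoa2 (11826 ± 2079), Apoa5 (4742 ± 1072), Apoc1 (3311 ± 1015), Mttp (2686 ± 572), Apoc3 (1768 ± 325), Apoa4 (564 ± 263) and Apoc2 (266 ± 54.5). The ranges of Apob, Apoe and Apoa1 did not overlap. Below them every neighbouring pair overlapped except Apoa2 and Apoa5: the lowest Apoa2 library held 7370 and the highest Apoa5 library 5972.

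**Figure D1:**
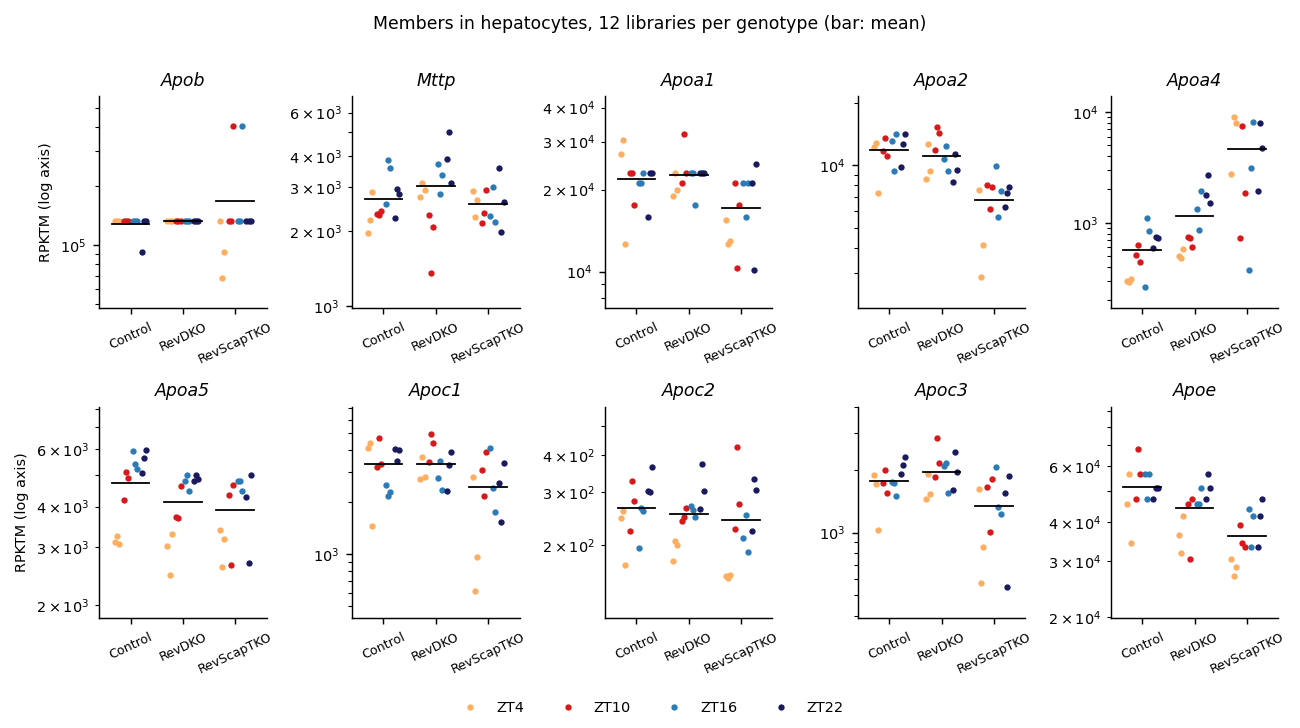
Level of each of the 10 genes (RPKTM, log axis) in the 36 hepatocyte libraries of Control, RevDKO and RevScapTKO. Points are libraries coloured by zeitgeber time and bars are means of 12 libraries: Apoa4 spreads from 374 to 8942 in RevScapTKO, whereas Apob stays at 132037 in all RevDKO libraries.

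The first comparison asked what loss of the REV-ERBs did to these genes in hepatocytes. No gene of the 10 passed the threshold between RevDKO and Control over the 4 time points (limma, adjusted p under 0.05), against 4.43% of 13326 genes tested (2.0% higher and 2.43% lower), and 1 of 10 had an unadjusted p under 0.05, against 16.8% of all genes. That gene was Apoa4, which encodes a protein of chylomicrons and HDL. Apoa4 was 564 ± 263 RPKTM in Control and 1149 ± 707 in RevDKO, a difference of 0.94 on the log2 scale (SE 0.36, adjusted p = 0.152), and 5 of 12 RevDKO libraries lay above every Control library. A fit of these 2 genotypes alone called Apoa4 (adjusted p = 8.65e-04). The other 9 genes differed by at most 0.22 on the log2 scale. Of the list of 26 genes for VLDL assembly and export none passed by limma, with 3 at an unadjusted p under 0.05.

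The second comparison asked what further loss of SCAP did. In RevScapTKO hepatocytes Apoa4 rose and Apoa2, Apoc3, Apoc1 and Apoa1 fell relative to RevDKO, which made 5 of 10 genes called, 1 higher and 4 lower. Among all genes tested 26.2% were called in this comparison, 13.5% as higher and 12.7% as lower. The median difference of the 10 genes was -0.24 on the log2 scale, beside -0.03 over all genes. Relative to Control, 6 of 10 were called, Apoa4 as higher and Apoa2, Apoe, Apoc1, Apoc3 and Apoa5 as lower, against 35.9% of all genes (17.3% higher and 18.7% lower). These 2 comparisons share the RevScapTKO libraries.

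Apoa4 had the largest difference of the 10 genes in both comparisons. In Control hepatocytes the 3 libraries held 296, 294 and 311 RPKTM at ZT4, 507, 626 and 440 at ZT10, 265, 1110 and 851 at ZT16, and 598, 742 and 731 at ZT22. In RevDKO they held 500, 481 and 586 at ZT4, 741, 737 and 606 at ZT10, 1333, 866 and 1929 at ZT16, and 1800, 2704 and 1504 at ZT22. In RevScapTKO they held 2737, 8942 and 7905 at ZT4, 729, 7485 and 1849 at ZT10, 374, 3108 and 8155 at ZT16, and 1929, 7905 and 4734 at ZT22. RevScapTKO libraries were therefore all above RevDKO at ZT4, overlapped them at the other times and spread from 374 to 8942 among themselves, and 8 of 12 lay above every RevDKO library while 1, ZT16 replicate 1, lay below all of them. At each time point replicate 1 held the lowest RevScapTKO value (2737, 729, 374 and 1929), where RevDKO libraries ran from 481 to 2704. The rise was thus larger in replicates 2 and 3. Apoa4 was 1.73 higher than in RevDKO on the log2 scale (SE 0.36, adjusted p = 6.84e-04) and 2.67 higher than in Control (SE 0.36, adjusted p = 1.22e-06), with 10 of 12 libraries above every Control library. Both calls held when any single library was left out.

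Apoa2, which makes up much of the protein of HDL after ApoA-I, moved the other way. Control libraries ranged from 7370 through a median of 12447 to 14113 RPKTM, RevDKO libraries from 8287 through 11048 to 15272, and RevScapTKO libraries from 2889 through 7427 to 9918. Of the 12 RevScapTKO libraries, 11 lay below every RevDKO library, and the exception was again ZT16 replicate 1. Apoa2 was lower by 0.76 on the log2 scale than in RevDKO (a difference of -0.76, SE 0.14, adjusted p = 1.40e-04) and by 0.85 than in Control (-0.85, SE 0.14, adjusted p = 1.90e-05), and both calls held when any library was left out. The lowest values were those of ZT4 replicates 2 and 3, at 2889 and 4098, the libraries with Apoa4 at 8942 and 7905. Over the 36 libraries the log2 levels of Apoa4 and Apoa2 had a Pearson correlation of -0.72, given as a description because the libraries share genotypes, time points and normalization.

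**Figure D2:**
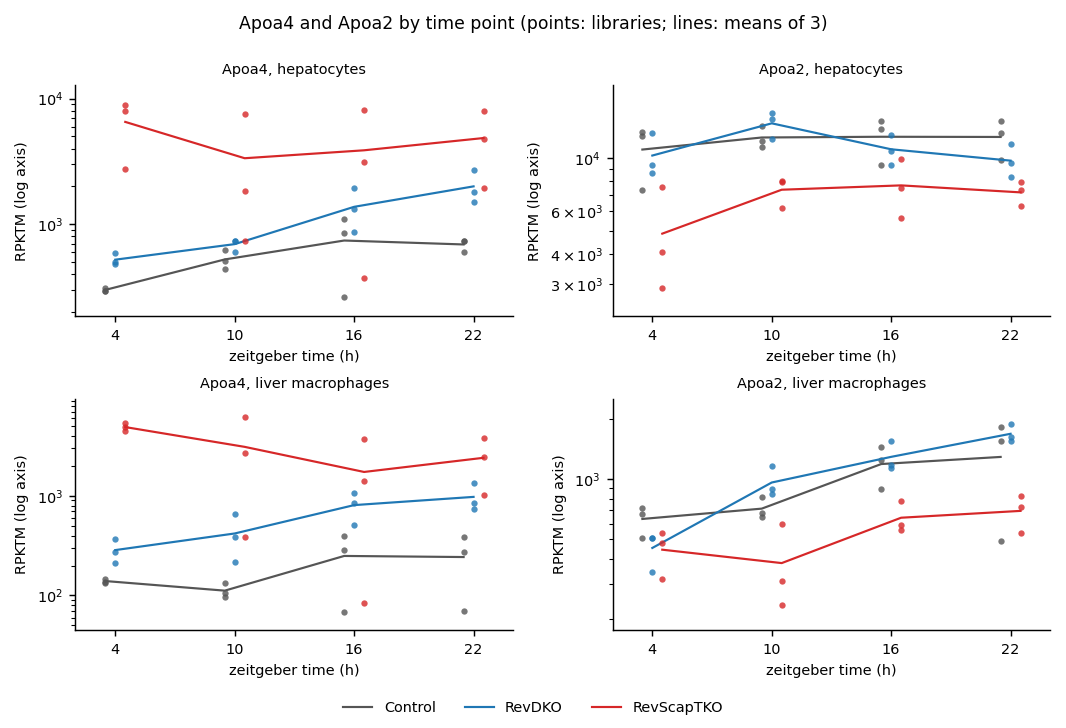
Apoa4 and Apoa2 (RPKTM, log axis) against zeitgeber time in hepatocytes and macrophages. Points are libraries, 3 for each genotype and time, and lines join means: in hepatocytes at ZT4 Apoa4 is 2737 to 8942 in RevScapTKO against 294 to 311 in Control.

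Apoa1 encodes the core protein of HDL. Its level was 17056 ± 4892 RPKTM in RevScapTKO, 22614 ± 3511 in RevDKO and 21789 ± 4759 in Control. The difference from RevDKO passed (-0.45, SE 0.15, adjusted p = 0.0281), with 6 of 12 libraries below every RevDKO library, and the difference from Control did not (-0.38, SE 0.15, adjusted p = 0.0522). The first call was lost in 4 of 36 fits that left out a library, with adjusted p up to 0.0708 without RevScapTKO ZT10 replicate 2, and the second difference passed in 8 of them (adjusted p = 0.00848 without Control ZT4 replicate 3). With no filter on low values the first call was lost as well (adjusted p = 0.0624).

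ApoC-III and ApoC-I both slow the clearance of triglyceride-rich particles. Apoc3 was 1343 ± 506 RPKTM in RevScapTKO, 1961 ± 415 in RevDKO and 1768 ± 325 in Control, and fell relative to RevDKO (-0.64, SE 0.17, adjusted p = 0.0065) and to Control (-0.49, SE 0.17, adjusted p = 0.0249). Apoc1 was 2444 ± 1099, 3336 ± 810 and 3311 ± 1015 in the same order (-0.59, SE 0.20, adjusted p = 0.0281 relative to RevDKO, and -0.54, SE 0.20, adjusted p = 0.0331 relative to Control). The RevScapTKO libraries of both genes reached from far below to within the other groups: Apoc3 from 549 to 2060 and Apoc1 from 617 to 4140. Apoc1 lost its call in 7 and 10 of 36 fits that left out a library, with adjusted p up to 0.0677 and 0.0822, both without RevScapTKO ZT4 replicate 2. The call of Apoc3 relative to Control was lost without RevScapTKO ZT4 replicate 2, ZT10 replicate 2 or ZT22 replicate 2 (adjusted p = 0.0598, 0.0565 and 0.0612). Apoc2, the activator of lipoprotein lipase, was 242 ± 81.3, 254 ± 50.9 and 266 ± 54.5 and did not pass in either comparison (-0.11 and -0.18, SE 0.10, adjusted p = 0.427 and 0.175).

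Apoe and Apoa5 fell relative to Control. Apoe was 36246 ± 6412 RPKTM in RevScapTKO, 44260 ± 7855 in RevDKO and 51566 ± 8343 in Control, which differed from Control by -0.51 (SE 0.12, adjusted p = 0.00103) and from RevDKO by -0.29 (SE 0.12, adjusted p = 0.0674). ApoA-V lowers plasma triglyceride by helping lipolysis. Apoa5 was 3905 ± 929, 4145 ± 868 and 4742 ± 1072, with -0.28 relative to Control (SE 0.10, adjusted p = 0.0251) and -0.09 relative to RevDKO (SE 0.10, adjusted p = 0.508). The call of Apoa5 was lost without RevScapTKO ZT10 replicate 2 or ZT22 replicate 2 (adjusted p = 0.0667 and 0.0591), or with only the 2 genotypes in the fit (adjusted p = 0.0516). Apoe passed relative to RevDKO without RevDKO ZT10 replicate 2 (adjusted p = 0.0336) or with no trend (adjusted p = 0.0288).

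The 2 genes of VLDL assembly itself did not pass. Mttp was 2583 ± 468 RPKTM in RevScapTKO, 3044 ± 936 in RevDKO and 2686 ± 572 in Control (-0.19 relative to RevDKO, SE 0.11, adjusted p = 0.216). Apob was at 132037 in 31 of 36 libraries. The 5 exceptions were Control ZT22 replicate 1 at 91769 and RevScapTKO ZT4 replicates 2 and 3 at 68172 and 91769 and ZT10 replicate 3 and ZT16 replicate 3 at 401582 each (0.14, SE 0.19, adjusted p = 0.600). No gene of the 10 had libraries that were fully apart between 2 genotypes, against 0.36%, 0.758% and 0.991% of all genes for RevDKO and Control, RevScapTKO and RevDKO, and RevScapTKO and Control.

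**Figure D3:**
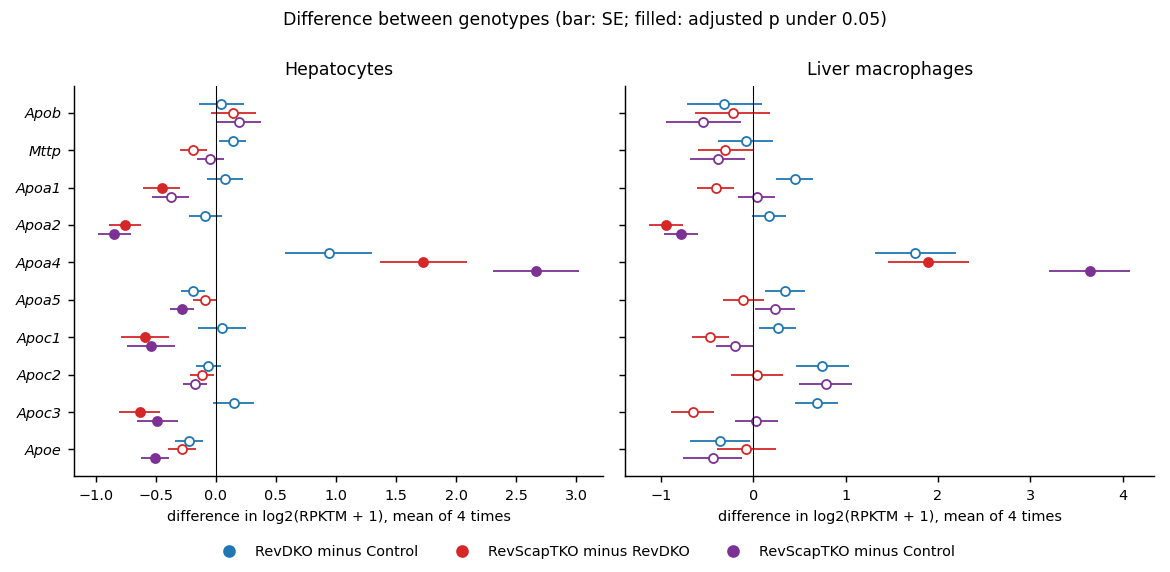
Difference in mean log2(RPKTM + 1) over the 4 time points for each gene and each of the 3 genotype comparisons, in hepatocytes and in macrophages. Bars are standard errors and filled points have an adjusted p under 0.05: Apoa4 lies farthest to the right and Apoa2 to the left of 0 in RevScapTKO in both cell types.

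RNA of other liver cells moved with the same genotype. In RevScapTKO hepatocyte libraries 13 of 13 macrophage markers were higher than in RevDKO (median 1.05 on the log2 scale) and than in Control (median 1.22), as were 6 of 7 stellate markers in both comparisons and 5 and 6 of 7 endothelial markers. Summed macrophage markers ranged from 1069 to 7027 RPKTM in RevScapTKO (median 3267), from 464 to 2731 in RevDKO (median 1226) and from 273 to 3523 in Control (median 986), so the ranges overlapped. Of 14 hepatocyte markers, 2 were higher and 3 lower than in RevDKO. With the mean log2 level of the macrophage markers as a covariate, a score that itself differed between genotypes, none of the 5 calls relative to RevDKO held: Apoa4 was at 0.58 (adjusted p = 0.640), Apoa2 at -0.44 (0.233 adjusted), Apoc3 at -0.04, Apoc1 at 0.04 and Apoa1 at 0.0033. Relative to Control, Apoa4 held (1.427, adjusted p = 0.0413), whereas Apoa2 was at -0.50 (adjusted p = 0.101), Apoe at -0.51 (adjusted p = 0.0661), Apoa5 at -0.08, Apoc3 at 0.15 and Apoc1 at 0.14.

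Within a genotype Apoa4 and the summed macrophage markers, both on the log2 scale, had a Pearson correlation of 0.70 in Control, 0.83 in RevDKO and 0.45 in RevScapTKO over 12 libraries each, which share time points. For Apoa2 the values were 0.04, -0.45 and 0.03. Beyond the covariate fit and these values, the part of other cells in the differences was not tested.

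At single time points, with 3 libraries a group, calls were made mainly at ZT4, with 3 of 10 genes called relative to RevDKO (9.28% of all genes) and 3 relative to Control (18.9%). There Apoa4 was 3.47 higher on the log2 scale in RevScapTKO than in RevDKO (SE 0.72, adjusted p = 0.00279) and 4.26 higher than in Control (SE 0.72, adjusted p = 1.85e-04). Apoa2 held 7592, 2889 and 4098 RPKTM in RevScapTKO at ZT4, against 8641, 12624 and 9356 in RevDKO (-1.17, SE 0.27, adjusted p = 0.00718) and 12270, 12776 and 7370 in Control (-1.23, SE 0.27, adjusted p = 0.00284). Apoc1 held 2801, 617 and 968 at ZT4, against 2722, 3640 and 2791 in RevDKO (-1.35, SE 0.40, adjusted p = 0.0317), and differed from Control by -1.32 (adjusted p = 0.0210). Without RevScapTKO ZT4 replicate 2, which was the most extreme library for all 3 genes, Apoa2 relative to RevDKO was at -0.85 (adjusted p = 0.0978) and Apoc1 at -0.88 (adjusted p = 0.271), with Apoc1 relative to Control at -0.85 (adjusted p = 0.192). At ZT22 Apoa4 was 2.598 higher than in Control (SE 0.72, adjusted p = 0.0362, beside 3.62% of all genes called), a call lost in 5 fits that left out a library (adjusted p up to 0.216, without RevScapTKO ZT22 replicate 2). With the macrophage markers as covariate none of these single-time calls held, with adjusted p from 0.0910 to 0.788.

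Hepatocyte-targeted deletion was then followed into the macrophage libraries. Apoa4 and Apoa2 passed there too, in the same directions, and the other 8 genes did not pass in any of the 3 comparisons. Relative to RevDKO this made 2 of 10 genes in RevScapTKO against 3.0% of 13947 genes tested (1.23% higher and 1.78% lower), relative to Control 2 of 10 against 3.76% (2.38% higher and 1.38% lower), and for RevDKO relative to Control 0 of 10 against 0.574% (0.402% higher and 0.172% lower). Again no gene of the 10 had libraries fully apart between 2 genotypes, against 0.151%, 0.129% and 0.0287% of all genes. In the last comparison 4 of 10 genes had an unadjusted p under 0.05 (Apoa4, Apoc3, Apoa1 and Apoc2), against 13.9% of all genes.

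Apoa4 held 137, 134 and 148 RPKTM in Control macrophages at ZT4, 106, 96.3 and 133 at ZT10, 67.5, 284 and 397 at ZT16, and 69.3, 275 and 385 at ZT22. In RevDKO it held 213, 271 and 373 at ZT4, 652, 390 and 217 at ZT10, 852, 515 and 1060 at ZT16, and 852, 1350 and 732 at ZT22. In RevScapTKO it held 5379, 4479 and 4902 at ZT4, 386, 6258 and 2696 at ZT10, 84.6, 1422 and 3719 at ZT16, and 1027, 3785 and 2439 at ZT22. The RevScapTKO libraries at ZT4 were high without exception, and the lowest was once more ZT16 replicate 1. At ZT10, ZT16 and ZT22 the RevScapTKO replicate numbers had the same order of Apoa4 as in hepatocytes, with replicate 1 the lowest. At ZT4 the order differed. Whether same-numbered libraries of both cell types came from the same mice was not given. The macrophage values are therefore not taken as independent of the hepatocyte values. The difference from RevDKO was 1.89 on the log2 scale (SE 0.44, adjusted p = 0.00959, 9 of 12 libraries above every RevDKO library) and from Control 3.65 (SE 0.44, adjusted p = 7.01e-07, 10 of 12 above). RevDKO was 1.75 above Control (SE 0.44, adjusted p = 0.0555, 7 of 12 above), a difference that passed with the hepatocyte markers as covariate (1.668, adjusted p = 0.0113) and in a fit of these 2 genotypes alone (adjusted p = 0.00168) but not without the 3 libraries high in Alb (1.38, adjusted p = 0.271). At single time points the difference from Control passed at ZT4 (5.13, SE 0.88, adjusted p = 0.00164) and ZT10 (4.07, SE 0.88, adjusted p = 0.0354), and the difference from RevDKO at ZT4 (4.13, SE 0.88, adjusted p = 0.0298), where 0.33%, 0.201% and 0.172% of all genes were called. The ZT10 call and the difference from RevDKO at ZT4 were lost in several fits that left out 1 library, with adjusted p up to 0.419 without RevScapTKO ZT10 replicate 2 and up to 0.172 without RevDKO ZT4 replicate 1.

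Apoa2 was 540 ± 185 RPKTM in RevScapTKO macrophage libraries, 1099 ± 495 in RevDKO and 957 ± 446 in Control. The RevScapTKO libraries ran from 234 to 820 and overlapped both groups. The difference was -0.95 relative to RevDKO (SE 0.18, adjusted p = 0.00143) and -0.78 relative to Control (SE 0.18, adjusted p = 0.0102). Without the 3 libraries high in Alb it was -0.90 (adjusted p = 1.19e-04) and -0.94 (adjusted p = 1.84e-04), and Apoa4 was at 1.868 (adjusted p = 0.0100) and 3.24 (adjusted p = 2.05e-05).

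No hepatocyte marker passed as higher beside Apoa4 in these libraries. Relative to RevDKO, 0 of 14 were higher and 3 lower in RevScapTKO, and no macrophage marker of 13 passed in either direction, whereas 2 of 7 stellate markers were higher. With the hepatocyte markers as covariate Apoa4 was at 2.68 (adjusted p = 5.85e-05) relative to RevDKO and 4.35 (adjusted p = 2.42e-09) relative to Control, and Apoa2 at -0.64 (adjusted p = 0.0222) and -0.51 (adjusted p = 0.0374). In the hepatocyte libraries Apoa4 was itself higher in RevScapTKO, by 1.73 relative to RevDKO and 2.67 relative to Control. Hepatocyte markers follow the amount of hepatocyte RNA and not the Apoa4 within it. Neither the marker counts nor this covariate can therefore tell the source of Apoa4. Which cells of the macrophage libraries held the Apoa4 RNA was not tested.

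Apoe, which macrophages make themselves, was the gene of the 10 with the highest median in RevScapTKO macrophage libraries after Apob. It was 14614 ± 3448 RPKTM in RevDKO and 13652 ± 3088 in RevScapTKO. In Control the median was 14942, and 2 of the 3 libraries high in Alb, ZT16 replicate 1 and ZT22 replicate 1, stood at 73347 each. Apob was at 793013 in Control ZT22 replicate 1 and between 8089 and 33320 in the other 35 libraries. Neither gene passed in any comparison (adjusted p from 0.502 to 0.933), and relative to Control the sign of RevDKO turned without the 3 libraries (Apob 0.07, Apoe 0.05). Apoc2 was the least abundant of the 10, with medians of 26.2, 54.1 and 58.6 in Control, RevDKO and RevScapTKO.

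The third question was daily rhythm, tested as a 24 h wave through the 4 time points with each library used once. In Control hepatocytes 1 of 10 genes was rhythmic, Apoa5, against 8.29% of all genes. Apoa5 held 3121, 3247 and 3076 RPKTM at ZT4, 4180, 5118 and 4912 at ZT10, 5911, 5418 and 5218 at ZT16, and 5069, 5659 and 5972 at ZT22. It was lowest in the light phase at ZT4 and did not overlap with any other time point. The fitted peak was at ZT17.1 with a peak to trough difference of 0.84 on the log2 scale, or 1.79-fold (adjusted p = 0.0184). The difference was 0.76 in RevDKO (adjusted p = 0.0512) and 0.62 in RevScapTKO (adjusted p = 0.172). No change of rhythm passed by limma, for RevDKO relative to Control (adjusted p = 0.9999) or for RevScapTKO relative to RevDKO (adjusted p = 0.969) or Control (adjusted p = 0.932). The call in Control was lost without ZT16 replicate 1 or 2 (adjusted p = 0.0531 and 0.0510). In RevDKO Apoa5 passed by limma with only that genotype in the fit (adjusted p = 0.0169) or with the replicate block (adjusted p = 0.0391).

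In RevDKO hepatocytes 1 of 10 was rhythmic, Mttp, against 4.08% of all genes. Mttp held 2737, 3141 and 2933 RPKTM at ZT4, 2333, 1364 and 2075 at ZT10, 3714, 2828 and 3368 at ZT16, and 3889, 5027 and 3121 at ZT22. The low point was thus ZT10, where all 3 libraries lay below every library of the other times, and the high point fell in the dark. The fitted peak was at ZT21.4 with a difference of 1.08, or 2.116-fold (adjusted p = 0.0151). In Control the difference was 0.53 (adjusted p = 0.276) and in RevScapTKO 0.13 (adjusted p = 0.916). A test of the change itself did not pass, with 0.96 between RevDKO and Control (unadjusted p = 0.0184 by limma, adjusted p = 0.809) and 0.99 between RevScapTKO and RevDKO (unadjusted p = 0.0143 by limma, adjusted p = 0.944). The call was lost without RevDKO ZT10 replicate 2 (0.85, adjusted p = 0.0922) or ZT22 replicate 2 (0.91, adjusted p = 0.0782).

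In RevScapTKO hepatocytes 0 of 10 genes were rhythmic by limma against 0.683% of all genes, with 4 of 10 at an unadjusted p under 0.05 (Apoa2, Apoa5, Apob and Apoc1) against 18.3% of all genes. No gene of the 10 had a changed rhythm in hepatocytes between RevDKO and Control (0.203% of all genes) or between RevScapTKO and RevDKO (0.0% of all genes), with 1 (Mttp) and 2 (Mttp and Apoa4) at an unadjusted p under 0.05, against 4.91% and 5.06% of all genes. A call in 1 genotype and none in another is therefore not a tested difference here.

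**Figure D4:**
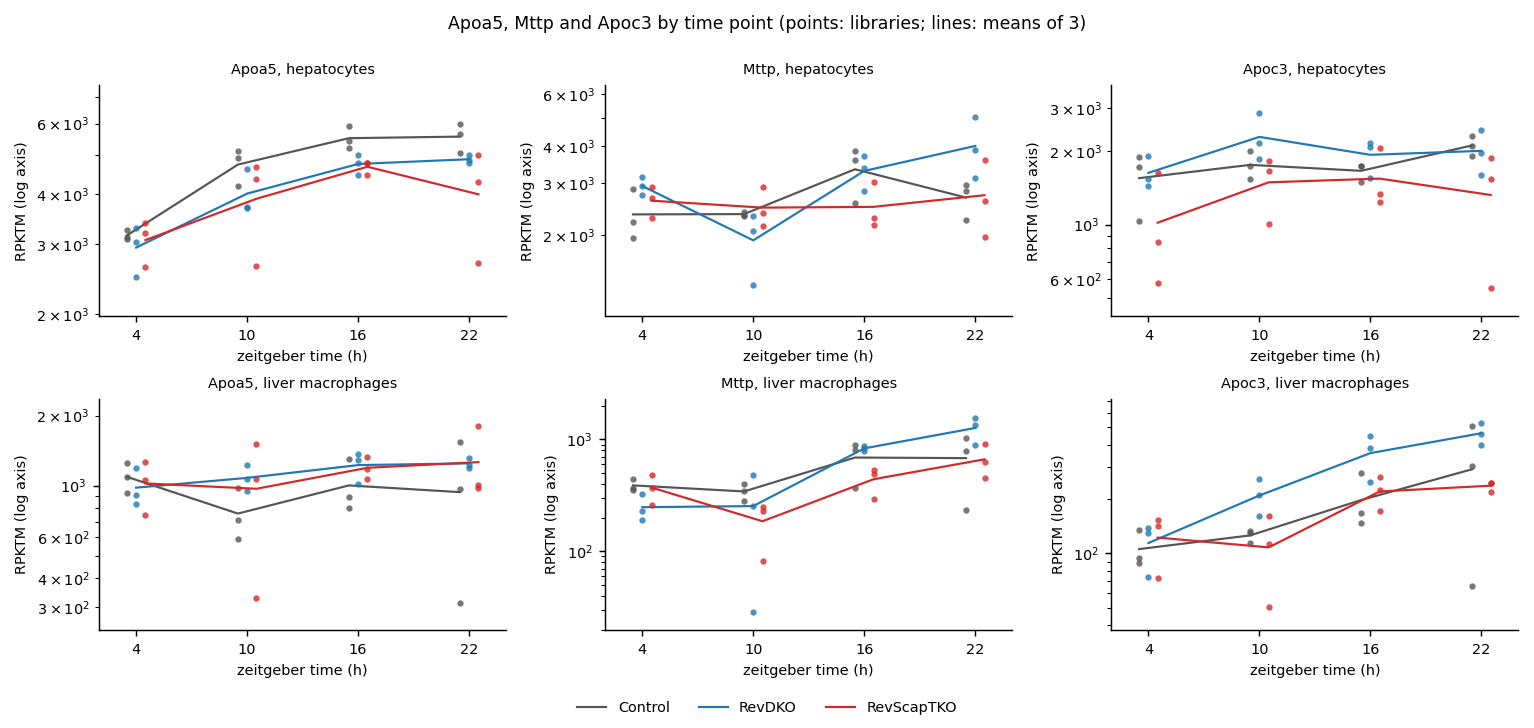
Apoa5, Mttp and Apoc3 (RPKTM, log axis) against zeitgeber time in hepatocytes and macrophages of Control, RevDKO and RevScapTKO. Points are libraries and lines join the means of 3: Apoa5 in Control hepatocytes is lowest at ZT4 (3076 to 3247) and Mttp in RevDKO hepatocytes at ZT10 (1364 to 2333).

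In macrophage libraries the 3 rhythmic genes were all in RevDKO: Mttp, Apoa2 and Apoc3, against 2.53% of all genes. Mttp held 192, 228 and 324 RPKTM at ZT4, 476, 28.9 and 256 at ZT10, 836, 785 and 873 at ZT16, and 1333, 1567 and 895 at ZT22. The light-phase libraries, from 28.9 to 476, thus lay below all dark-phase libraries, from 785 to 1567. The fitted peak was at ZT20.0 with 3.49 on the log2 scale, or 11.2-fold (adjusted p = 0.00829), and without the low library at ZT10 the difference was 2.54 (adjusted p = 0.0193). Apoc3 held 74.2, 129 and 139 at ZT4, 257, 161 and 210 at ZT10, 449, 247 and 382 at ZT16, and 399, 531 and 459 at ZT22 (peak at ZT18.3, 2.02, adjusted p = 0.0374). Apoa2 held 341, 508 and 509 at ZT4, 1159, 840 and 888 at ZT10, 1144, 1182 and 1553 at ZT16, and 1553, 1889 and 1617 at ZT22 (peak at ZT17.9, 1.73, adjusted p = 0.0225).

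For Apoc3 and Apoa2 all 3 ZT4 libraries lay below those of every other time. Hepatocyte markers in the same RevDKO libraries had a median difference of 0.98 with 0 of 14 rhythmic, and macrophage markers 2.06 with 0 of 13 rhythmic. Median sums of macrophage markers at ZT4, ZT10, ZT16 and ZT22 were 28644, 20237, 7481 and 7281 RPKTM, lower in the dark. Those of hepatocyte markers were 64315, 103047, 70919 and 117877. No covariate of macrophage markers was fitted in these libraries. Among stellate markers 2 of 7 (Colec11 and Dcn) and among endothelial markers 1 of 7 (Lyve1) were rhythmic, with peaks from ZT17.6 to ZT18.7. With the hepatocyte markers as covariate none of the 3 calls held (Mttp 1.44, adjusted p = 0.143, Apoa2 1.01, adjusted p = 0.196, Apoc3 0.89, adjusted p = 0.365). Without RevDKO ZT4 replicate 1 Apoa2 (adjusted p = 0.0876) and Apoc3 (adjusted p = 0.113) were lost, and Apoc3 was also lost without any of 4 other RevDKO libraries (adjusted p from 0.0628 to 0.0881). None of the 10 was rhythmic by limma in Control (0.0502% of all genes, with 2 of 10 and 7.99% of all genes at an unadjusted p under 0.05) or RevScapTKO macrophages (0.0789% of all genes, with 4 of 10 and 3.73%). Without the 3 libraries high in Alb, Apoa2 (1.66, adjusted p = 0.0123) and Apoc3 (1.95, adjusted p = 0.0243) passed in Control as well. No gene of the 10 had a changed rhythm in macrophages (0.0% of all genes in both comparisons, 1 of 10 at an unadjusted p under 0.05 in each, Mttp and then Apoa4, against 5.5% and 3.57%).

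In hepatocyte libraries 13 of 13 macrophage markers were rhythmic in Control (median difference 2.74, peaks from ZT18.7 to ZT20.9). In RevDKO 6 of 13 were and in RevScapTKO 2 of 13. In Control macrophage libraries 0 of 13 were rhythmic, where 0.0502% of all genes were. The median sum of these markers in Control hepatocytes was 514, 744, 1710 and 2846 RPKTM at ZT4, ZT10, ZT16 and ZT22. Whether the amount of macrophage RNA or the level per cell changed was not tested. In Control hepatocytes 7 of 7 endothelial markers (peaks from ZT17.7 to ZT18.9) and 4 of 7 stellate markers (ZT17.3 to ZT19.0) were rhythmic too. No covariate was fitted for these endothelial and stellate markers. Hepatocyte markers were not rhythmic in Control or RevDKO (0 of 14 each). With the macrophage markers as covariate the rhythm of Apoa5 in Control held (1.24, adjusted p = 0.0189) and that of Mttp in RevDKO did not (0.94, adjusted p = 0.112).

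The study's rhythm test, JTK_CYCLE with each series entered 2 times in a row, was recoded for these data and called more genes. A call needed p under 0.05 after correction for 7 wave patterns, but not for the number of genes. It also needed a best period of 24 h (18 h was the other tried) and a ratio over 1.5 between the highest and lowest time mean. In hepatocytes it called Apoa4 and Apoa5 in Control (20.8% of all genes), Apoa4, Apoa5 and Mttp in RevDKO (20.5%) and Apoa5 in RevScapTKO (12%). In macrophages it called Apoa4, Apob, Apoc3 and Mttp in RevDKO (16.1%) and Apoa1, Apoa4, Apoc3 and Mttp in RevScapTKO (8.57%). It called none of the 10 in Control macrophages (11.2%). With each series entered once, Mttp in RevDKO hepatocytes (3.83% of all genes) and Mttp in RevScapTKO macrophages (0.805%) were called, and none of the 10 in Control hepatocytes (4.36%), RevScapTKO hepatocytes (1.48%), Control macrophages (1.01%) or RevDKO macrophages (1.5%). Entering a series 2 times counts each library again.

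The ScapKO libraries are labelled as floxed for Scap and for neither REV-ERB gene, and their levels are given by themselves. In ScapKO hepatocytes Apob (166449 ± 37712 RPKTM), Apoe (76346 ± 7515) and Apoa1 (46541 ± 8758) led the order, followed by Apoa2 (17597 ± 4562), Apoc1 (10474 ± 3026), Apoa5 (9562 ± 1701), Apoc3 (5865 ± 1360), Mttp (3298 ± 243), Apoa4 (2076 ± 656) and Apoc2 (734 ± 137). Apoa4 held 1448, 1698 and 2818 at ZT4, 1716, 1242 and 2689 at ZT10, 1502, 3094 and 2025 at ZT16, and 2868, 2351 and 1460 at ZT22. It therefore stayed between 1242 and 3094 in the 12 libraries, and no time point stood apart from the others. The lowest Apoc1 library, at 6103, was above the highest Mttp library, at 3893, whereas the lowest Apoc3 library, at 3836, was not.

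In ScapKO macrophage libraries Apoe was 27557 ± 3055 RPKTM and steady over time, and Apob was 9646 ± 7964. Apoc1 was 1548 ± 298. Apoa1, Apob and Mttp were lowest at ZT10: Apoa1 was 5570 ± 3795 at ZT4, 1148 ± 41.7 at ZT10, 2643 ± 1770 at ZT16 and 5901 ± 3845 at ZT22 (n = 3 each), and Mttp 650.3 ± 574, 149.5 ± 18.4, 249.8 ± 63.5 and 570.4 ± 576. The means of Apoa2, Apoa4, Apoa5, Apoc2 and Apoc3 were lowest at ZT10 as well, with libraries that overlapped those of other times. Apoc1 had its highest mean there. Apoa4 was 588 ± 556 over the 12 libraries, from 30.4 to 1753. Summed hepatocyte markers were lowest at ZT10 too, with medians of 72399 at ZT4, 27676 at ZT10, 39510 at ZT16 and 73285 at ZT22. None of the 10 genes was rhythmic by limma in ScapKO hepatocytes (1.85% of all genes, with 0 of 10 and 14.6% of all genes at an unadjusted p under 0.05) or macrophages (0.0% of all genes, with 3 of 10 and 10.1%), also without the libraries that stood apart in Xist or in endothelial and stellate markers. JTK_CYCLE with the series entered 2 times called Apoa1, Apoa2 and Apob in ScapKO macrophages (13.3% of all genes), and Apoa1 with it entered once (1.96%), and none of the 10 in ScapKO hepatocytes (12.9% and 2.67%).

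**Figure D5:**
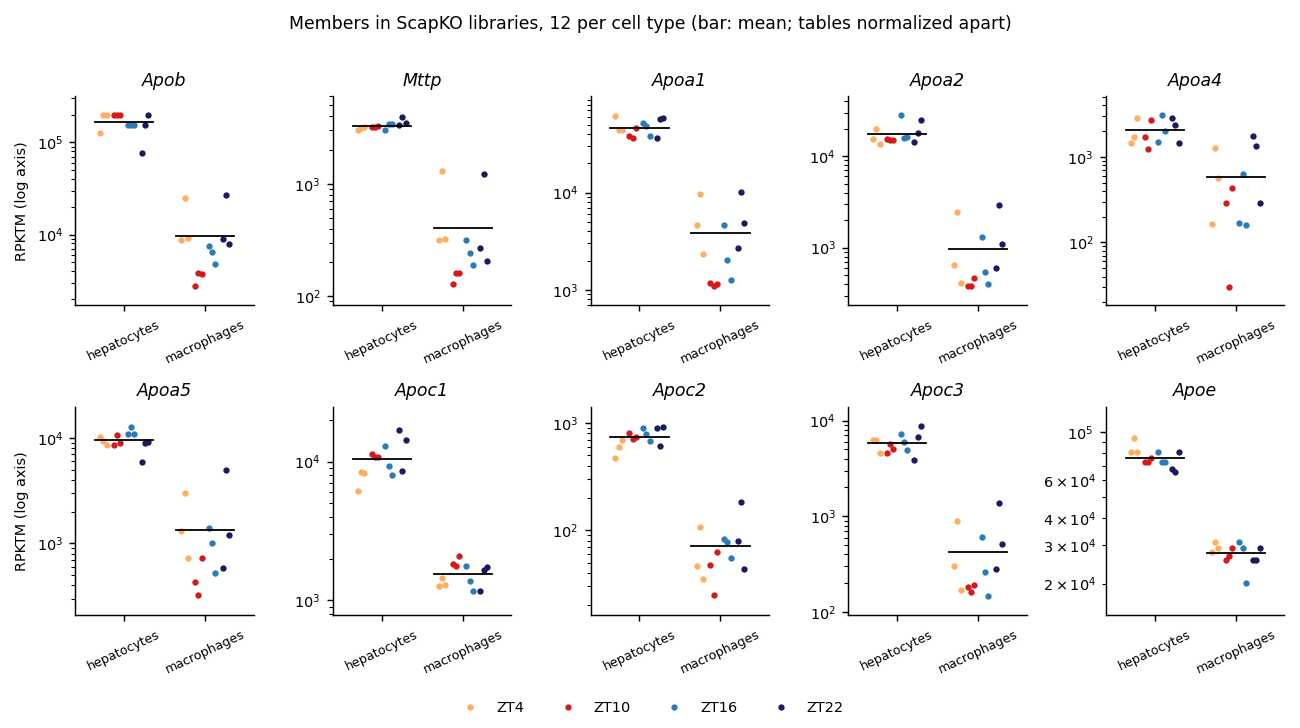
Level of each of the 10 genes (RPKTM, log axis) in the 12 ScapKO hepatocyte and 12 ScapKO macrophage libraries, each cell type from its own table. Points are libraries coloured by zeitgeber time and bars are means: the macrophage libraries of ZT10 are the lowest for Apoa1 (1109 to 1192) and Mttp (128 to 161).

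Other genes of lipoprotein handling were read from 4 lists. In hepatocytes, RevScapTKO relative to RevDKO, with 13.5% of all genes higher and 12.7% lower, 3 of 11 other apolipoprotein genes were higher and 1 lower, 9 of 26 genes for VLDL assembly and export were higher and 4 lower, 2 of 19 genes for HDL and plasma lipid remodelling were higher and 8 lower, and 0 of 20 regulator genes were higher and 5 lower. Medians were 0.01, 0.16, -0.12 and -0.10, beside -0.03 over all genes. Srebf1, which encodes SREBP1, was 133 ± 102 RPKTM against 2064 ± 746 in RevDKO (-4.07, SE 0.19, adjusted p = 2.61e-17). Angptl8, a fed-state inhibitor of lipoprotein lipase, was lower as well (-1.07, SE 0.37, adjusted p = 0.0324), and so was Vldlr (-1.22, SE 0.25, adjusted p = 5.21e-04).

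Within VLDL assembly, Lpcat3, which remodels the phospholipids of the nascent particle, was 140 ± 30.7 RPKTM against 336 ± 54.5 (-1.27, SE 0.09, adjusted p = 1.11e-12) and Tmem41b, an endoplasmic reticulum scramblase, 33.7 ± 6.82 against 58.3 ± 11.9 (-0.77, SE 0.12, adjusted p = 2.08e-05). Apobec1, which edits Apob RNA, was 76.0 ± 30.7 against 42.8 ± 11.2 (0.75, SE 0.15, adjusted p = 5.49e-04). The lipid droplet gene Cidec was low in both, at 11.9 ± 4.49 against 5.43 ± 2.55 (1.04, SE 0.25, adjusted p = 0.00279). Among other apolipoproteins Clu (clusterin, or ApoJ) was 5665 ± 1025 against 4042 ± 1018 (0.50, SE 0.11, adjusted p = 0.00168). Apol9a (1.1, SE 0.20, adjusted p = 1.83e-04) and Apol9b (0.46, SE 0.16, adjusted p = 0.0367), near-identical copies that can share reads, were higher. Apoo was lower, at 2.22 ± 1.27 RPKTM against 5.20 ± 3.13 (-0.89, SE 0.29, adjusted p = 0.0237), near the filter of 5 RPKTM. Of the regulators Srebf2 (-1.43, SE 0.14, adjusted p = 3.47e-09), Nr0b2 (-0.88, SE 0.30, adjusted p = 0.0312) and Ppargc1a (-0.69, SE 0.23, adjusted p = 0.0265) were also lower.

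Relative to Control, RevScapTKO hepatocytes had 2 higher and 0 lower of 11 other apolipoproteins, 4 and 6 of 26 in VLDL assembly, 4 and 7 of 19 in HDL and plasma lipid remodelling and 2 and 9 of 20 regulators, against 17.3% of all genes higher and 18.7% lower, with medians of 0.10, 0.09, -0.16 and -0.16 beside -0.04 over all genes. Tm6sf2, which is needed to lipidate VLDL, was 39.3 ± 17.4 RPKTM against 73.4 ± 25.7 (-0.93, SE 0.16, adjusted p = 3.23e-05), and Apof was 2734 ± 1424 against 1741 ± 267 (0.54, SE 0.15, adjusted p = 0.0053). In RevDKO relative to Control the counts were 1 and 0, 0 and 0, 1 and 1, and 1 and 2, against 2.0% and 2.43% of all genes. There Lpl, lipoprotein lipase itself, rose from 39.0 ± 24.6 to 227 ± 100 (2.649, SE 0.17, adjusted p = 3.39e-12), Saa4 fell (-1.15, SE 0.19, adjusted p = 1.36e-04) and Apoh rose (0.29, SE 0.08, adjusted p = 0.0407). Creb3l3, a known activator of Apoa4, fell (-0.38, SE 0.11, adjusted p = 0.0318), whereas Nr1d1 was higher in the log2 fit (1.55, SE 0.25, adjusted p = 8.87e-05).

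In macrophage libraries RevScapTKO had, relative to RevDKO, 0 of 11, 0 of 26, 0 of 19 and 0 of 21 genes of these lists higher and 0, 2, 5 and 1 lower, against 1.23% of all genes higher and 1.78% lower (limma), with 1, 5, 8 and 4 at an unadjusted p under 0.05. Srebf1 (-3.17, SE 0.20, adjusted p = 4.08e-13) and Lpcat3 (-0.92, SE 0.18, adjusted p = 0.00214) were lower there as in hepatocytes. Lipc, hepatic lipase (-1.003, SE 0.23, adjusted p = 0.0103) and Ces3b (-0.87, SE 0.25, adjusted p = 0.0434), which hepatocytes express, were lower as well. Relative to Control, Apol9b was higher (1.36, SE 0.40, adjusted p = 0.0493) and Srebf1 and Lpcat3 were among those lower. No gene of the 4 lists passed by limma between RevDKO and Control macrophages, where 0.574% of all genes did, with 5 of 11, 4 of 26, 3 of 19 and 4 of 21 at an unadjusted p under 0.05.

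The patterns of the genes were compared over the 36 hepatocyte libraries by Pearson correlation of log2 levels with 13326 genes, which share libraries and genotypes. The most similar to Apoa4 were App (0.91), Cntnap1 (0.90) and Samd4 (0.89). Apoa2 was most like Fam136a (0.90), 0610012G03Rik (0.89) and Tmem14c (0.88). Apoc3 and Apoc1 were like each other (0.87) and Chchd3 (0.87 and 0.90), together with Leap2 (0.89) for Apoc3 and Sar1b (0.92) and Ndufa4 (0.91) for Apoc1. Sar1b encodes the GTPase that buds lipoproteins from the endoplasmic reticulum. Apoa1 was most like Apoc3 (0.82), its neighbour on chromosome 9, and Rdx (0.80) and Ciao2a (0.80), whereas Apoa4, in the same cluster, had a correlation of -0.53 with Apoa1 and -0.58 with Apoc3. Apoa5 was most like Smad6 (0.82), Tedc2 (0.82) and Dgat2 (0.82), the last of which makes triglyceride, and Apoe like Akt1s1 (0.84), Fkbp8 (0.83) and Rplp1 (0.83). In the chromosome 7 cluster Apoc1 and Apoe had a correlation of 0.48, Apoc1 and Apoc2 of 0.47 and Apoc2 and Apoe of 0.54.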

How the data were processed

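Per the labels and the study's methods, total RNA of isolated hepatocytes and liver macrophages was depleted of ribosomal RNA and sequenced with a stranded kit. The authors mapped reads with STAR to mm9 and used HOMER to make RPKM values per transcript, scaled as RPKTM, that were quantile normalized before they were deposited. The deposited RPKM-type values were taken as they are from 4 tables. Tool versions, and whether counting used strand, are not given in the sources used here. Depth is unknown because the tables hold no counts, so no interval on counting error is given. The values of the highest ranks are shared steps, and a change of all genes together would be hidden.

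Groups came from the labels. The main test was limma 3.58.1 (R 4.3.3) with a mean-variance trend on log2(RPKTM + 1), fitted to the 36 libraries of a cell type with 12 group means, on genes with at least 3 libraries over 5 RPKTM and 1 transcript per gene (the highest mean). Fold changes are on that log2 scale and understate the change of low genes. Benjamini-Hochberg adjusted p-values cover all genes tested (13326 in hepatocytes, 13947 in macrophages, 12724 and 13930 in the ScapKO tables), with a threshold of 0.05. Rhythm was an F test of 24 h cosine and sine terms. Apoa2 was read from another transcript in the ScapKO macrophage table than elsewhere. Scripts used Python 3.11.15, numpy 2.4.6 and pandas 2.3.3 and were tested on simulated data.

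The 10 genes and all lists were chosen with earlier results of these data known. All 10 are named. From each of 4 other pathway lists up to 4 called genes with the largest change were named per comparison, and for each gene called in hepatocytes the 3 genes most correlated with it. Some genes that this rule names are not reported here. Alternatives were pseudocounts of 0.1 and 5, no filter, the replicate number as a block, fewer genotypes in the fit, a marker score as covariate, centring on the median ratio, all transcripts, no trend, an F test of any time difference, JTK_CYCLE, and each library left out. Leaving out the libraries that stood apart was chosen after seeing the data.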

Additional observations from a re-analysis of the deposited data

Results flagged for a closer look

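In 4 cases every library of one group lay above its reference while every library of another group lay below it. Over all genes tested the same pattern was found for 1.77% and 1.53% (between times in macrophages) and 0.633% and 0.554% (between cell types at ZT4), in the order given here. None of these differences between groups was tested, and groups of 3 or 12 libraries were not searched for single extreme libraries. In macrophages, RevDKO relative to Control, Apoa2 was at 0.43 on the log2 scale at ZT10, where RevDKO held 840 to 1159 RPKTM and Control 648 to 810, and at -0.49 at ZT4, where RevDKO held 341 to 509 and Control 510 to 715. In macrophages, RevScapTKO relative to RevDKO, Apob was at 0.81 at ZT4 (14228 to 19121 against 8089 to 10488 RPKTM) and at -0.81 at ZT22 (12114 to 23849 against 33320 in all 3).

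Apoc2 at ZT4 moved in opposite directions in the 2 cell types. Relative to RevDKO, RevScapTKO was at -0.30 in hepatocytes and at 0.98 in macrophages. Relative to Control it was at -0.50 in hepatocytes, where RevScapTKO held 155 to 158 RPKTM and Control 170 to 259, and at 1.12 in macrophages, where RevScapTKO held 41.8 to 69.9 and Control 17.4 to 38.3. Both cases share the RevScapTKO libraries, and reads of Apoc2 cannot be told apart from those of the overlapping Gm44805.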

How the results depend on the processing

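The calls of the mean level of Apoa4 and Apoa2 over the 4 times in RevScapTKO, in both cell types and against both references, held when any 1 library was left out and under every alternative, except that with the marker covariate in hepatocytes Apoa4 was lost relative to RevDKO and Apoa2 relative to both. Calls at single times were less stable: Apoa4 at ZT22 in hepatocytes and, in macrophages, at ZT10 relative to Control and at ZT4 relative to RevDKO was lost with no filter (adjusted p = 0.0957, 0.153 and 0.127 by limma), with no trend and with only the 2 genotypes in the fit. With that covariate the hepatocyte counts of called genes were 0 (relative to RevDKO) and 1 (relative to Control), and in macrophages RevDKO relative to Control gave 1 (Apoa4) and RevScapTKO relative to Control 4 (Apoa2, Apoa4, Apoa5, Apoc2). Signs turned with it for Apoa5 (0.10), Apoa1 (0.0033) and Apoc1 (0.044) relative to RevDKO and Apoc3 (0.15), Apoa1 (0.11) and Apoc1 (0.14) relative to Control in hepatocytes, and for Mttp (0.45) and Apoa5 (0.29) relative to RevDKO and Mttp (0.29) relative to Control in macrophages. Of these, Apoa1 and Apoc1 relative to RevDKO and Apoc3 and Apoc1 relative to Control in hepatocytes had been called. The cause was not tested.

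RevDKO relative to Control gave 1 call, Apoa4, with only the 2 genotypes in the fit in hepatocytes, and in macrophages with that fit, a pseudocount of 5 or the replicate block. Without the 3 macrophage libraries highest in Alb, signs turned for Apob (0.067), Apoe (0.051) and Apoa2 (-0.033) in RevDKO and for Apoc3 (-0.22), Apoa5 (-0.017) and Apoa1 (-0.14) in RevScapTKO relative to Control, and 2 genes were rhythmic in Control. The counts of rhythmic genes were, in Control hepatocytes, 2 with the covariate, 0 by JTK_CYCLE with the series entered once and 2 with it entered 2 times. In RevDKO hepatocytes they were 2 with the replicate block or centring and 3 with the genotype alone or doubled JTK_CYCLE. In RevScapTKO hepatocytes they were 2 with the covariate (Apoc1 and Apoc3), 1 by the F test of any time difference (Apoc2) and 1 by doubled JTK_CYCLE. In RevDKO macrophages they were 0 with the covariate, 5 with the genotype alone and 0 by JTK_CYCLE once. By JTK_CYCLE once and doubled they were 1 and 4 in RevScapTKO and 1 and 3 in ScapKO macrophages.

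With each library left out, the count of called genes ran from 3 to 5 relative to RevDKO and from 3 to 7 relative to Control in RevScapTKO hepatocytes, lowest without RevScapTKO ZT10 replicate 2 or ZT22 replicate 2. In macrophages it ran from 0 to 3 in RevDKO (3 without Control ZT22 replicate 3) and from 2 to 3 in RevScapTKO. Rhythmic genes ran from 0 to 1 in Control, 0 to 2 in RevDKO and 0 to 2 in RevScapTKO hepatocytes (2 without RevScapTKO ZT4 replicate 1), and from 0 to 2 in Control (2 without Control ZT22 replicate 1) and 1 to 3 in RevDKO macrophages. Signs that turned were of estimates that had not been called. In hepatocytes these were Apoa1 (-0.025 to 0.13) and Apoc1 (-0.082 to 0.12) in RevDKO and Mttp (-0.10 to 0.0039) in RevScapTKO relative to Control. In macrophages relative to Control they were Apob (-0.53 to 0.11) and Mttp (-0.29 to 0.21) in RevDKO and Apoa1 (-0.11 to 0.12) and Apoc3 (-0.19 to 0.18) in RevScapTKO, and relative to RevDKO Apoa5 (-0.22 to 0.053) and Apoc2 (-0.087 to 0.16).

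The replicate numbers were not taken as pairing the libraries, because the labels give no shared source. Deviations with a correlation over 0.1 were found in 45 of 198 same-numbered pairs in hepatocytes and 85 of 198 in macrophages. Pairs with different numbers had them less often, in 41 and 50 of 396. Libraries of the same number may therefore share structure that the main fit ignores. As a hint from the data, 24 and 27 of 36 libraries correlated best with their own number. Besides the calls above, the replicate block added Apoc2 in RevScapTKO relative to Control macrophages (adjusted p = 0.0472 by limma) and Apoa5 as rhythmic in RevDKO hepatocytes (adjusted p = 0.0391), and it lost none. The tables give no depth, so precision rests on the spread between libraries, and Apob is limited by shared top values.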
